A study of Mus musculus with 27 samples.

Results

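The genes described here are 47 genes of the cell division cycle, chosen from a list by their known phase of expression and not by their values. They are 20 genes of the G1/S transition and S phase, 21 of G2 and mitosis, 5 regulators of G1, and Stmn1, a microtubule-destabilising protein kept apart because it was assigned to no phase. Of these, 46 of the 18194 genes measured were analysed, 20 in each phase set, and Ccnb1 was not analysed here. Each gene was read from the brightest probe set that carried its symbol alone, and all levels are log2 of the deposited intensity, so that a difference of 1 is a doubling. Levels of different genes come from different probes and are not compared with each other.

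RNA was measured on 27 Affymetrix 3' arrays, 3 for each of 9 sorted T cell groups of Balb/c mice. From thymus came Treg precursor cells, which the series title gives as CD4 single-positive, CD25+ and negative for a Foxp3 GFP reporter, together with Foxp3+GFP+ and Foxp3-GFP- cells, each divided by surface CD24 into high (CD24hi), intermediate (CD24int) and low (CD24lo). From lymph node came Tregs and naive T cells. The source labels of the Foxp3- groups also carry the word Treg, and the labels give neither ages nor whether replicates were separate animals or pools, so the p-values reflect only the variation among these arrays, which may be technical. Foxp3, the lineage factor of regulatory T cells (Tregs), was at 9.74 to 10.19 in the Foxp3+ and lymph node Treg arrays and at 3.31 to 4.37 in all others, and Cd3e, a subunit of the T cell receptor complex, was at 10.48 to 11.08 throughout.

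Cells that commit to division pass a restriction point in G1, where D-type cyclins with Cdk4 or Cdk6 inactivate the retinoblastoma protein and release E2F factors. E2F then drives the genes of nucleotide synthesis and replication at G1/S. Genes of G2 and mitosis are expressed later, mainly through the CHR and CCAAT elements of their promoters, which the MuvB complex and NF-Y bind, and in resting cells MuvB forms part of the repressive DREAM complex. Cdkn1b (p27) and Cdkn1a (p21) inhibit cyclin-dependent kinases. CD4 single-positive thymocytes lose surface CD24 as they mature, and naive T cells in lymph node are largely quiescent.

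The promoter sequences of the members carried these elements unevenly, and 4 are shown because their genes had the widest spread between groups in their phase set. Between them these 4 show each element. They are RefSeq windows of 300 bases on GRCm38.p6, with 250 bases before the start site and 50 after, printed 5' to 3' along the gene's strand. Capitals mark matches on either strand to an E2F core (TTGGCGC and its variants TTCCCGC and also TTCGCGC), a CHR core (TTTGAA and also TTTAAA) or a CCAAT box (CCAAT, which reads ATTGG where it lies on the other strand). The windows lie at chr11:98907901-98908200 on the plus strand for Cdc6, which loads the MCM helicase at origins, and at chr12:24708004-24708303 on the plus strand for Rrm2, the regulated subunit of ribonucleotide reductase. Those of Bub1, a kinase of the spindle checkpoint, and Mki67, the proliferation antigen Ki-67, lie at chr2:127831810-127832109 and chr7:135716330-135716629 on the minus strand. The annotated genes begin at 98907709 for Cdc6 and at 135716450 for Mki67, so these windows belong to later start sites. That of Cdc6 lies wholly inside the gene, and bases before the gene's first base were not read.
Cdc6: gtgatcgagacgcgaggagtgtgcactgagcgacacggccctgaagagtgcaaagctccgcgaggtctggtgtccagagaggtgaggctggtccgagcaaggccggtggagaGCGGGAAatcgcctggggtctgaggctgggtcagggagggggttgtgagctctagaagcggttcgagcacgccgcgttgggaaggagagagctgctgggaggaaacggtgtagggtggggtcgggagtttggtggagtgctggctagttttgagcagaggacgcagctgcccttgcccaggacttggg
Rrm2: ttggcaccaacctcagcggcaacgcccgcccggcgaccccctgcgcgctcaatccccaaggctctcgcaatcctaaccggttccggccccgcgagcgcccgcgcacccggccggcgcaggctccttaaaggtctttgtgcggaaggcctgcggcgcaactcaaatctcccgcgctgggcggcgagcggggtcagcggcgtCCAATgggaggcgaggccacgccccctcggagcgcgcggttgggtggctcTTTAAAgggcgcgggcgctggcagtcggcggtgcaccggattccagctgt
Bub1: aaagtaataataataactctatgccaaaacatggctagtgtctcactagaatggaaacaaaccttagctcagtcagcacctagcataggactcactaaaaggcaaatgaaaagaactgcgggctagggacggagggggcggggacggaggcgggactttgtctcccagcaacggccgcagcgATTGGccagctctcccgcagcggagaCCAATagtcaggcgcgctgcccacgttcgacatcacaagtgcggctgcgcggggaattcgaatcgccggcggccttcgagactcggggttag
Mki67: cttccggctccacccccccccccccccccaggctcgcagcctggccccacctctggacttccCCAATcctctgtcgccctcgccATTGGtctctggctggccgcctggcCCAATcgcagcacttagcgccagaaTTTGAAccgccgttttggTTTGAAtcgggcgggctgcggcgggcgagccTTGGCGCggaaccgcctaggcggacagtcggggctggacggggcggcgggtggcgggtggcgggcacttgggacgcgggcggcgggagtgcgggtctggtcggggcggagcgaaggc

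Windows were found for 36 of the members, 19 windows for 16 G1/S genes and 16 windows for 16 G2/M genes. An E2F core was present in 57.9% of the G1/S windows and 12.5% of the G2/M windows, against 8.07% of all 32851 windows in the table. A CHR core was present in 26.3% of the G1/S and 87.5% of the G2/M windows, against 27.6% of all. The G2/M genes with a window but no CHR core were Bub1 and Nusap1, a spindle-assembly protein. A CCAAT box stood in 52.6%, 87.5% and 37.4% of the same sets, and both CHR and CCAAT in 15.8%, 81.2% and 10.7%. Short motifs match by chance, ATTGG can overlap the start of TTGGCGC, and a match or its absence is a description of these letters alone.

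Members differed more between the sorted groups than most genes did. The range of the 9 group means had a median of 1.38 for the G1/S genes and 2.55 for the G2/M genes, against 0.45 for all genes, and 19 of 20 G1/S and 20 of 20 G2/M genes lay above the 75th percentile of all genes by this range. G1/S ranges ran from 0.71 to 2.86 and G2/M ranges from 1.36 to 3.40. The widest in the G1/S set were those of Cdc6, Rrm2, Tk1 (thymidine kinase) and Ccne2 (cyclin E2), and in the G2/M set those of Bub1, Mki67, Kif23 (a kinesin of the central spindle) and Top2a (topoisomerase II alpha). Ccne1 (cyclin E1) and Mcm4, a helicase subunit, varied least in the G1/S set, and Plk1 and Cdc20, a mitotic kinase and an activator of the anaphase-promoting complex, varied least in the G2/M set.

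Foxp3- CD24int thymocytes held the highest mean for 14 of 20 G1/S and 19 of 20 G2/M genes, and Treg precursors held it for 4 G1/S genes. Lymph node naive T cells held the lowest mean for 14 G1/S and 18 G2/M genes, and Foxp3+ CD24int or CD24lo thymocytes held it for the other 6 and 2. When each gene was centred on its mean over the 27 arrays and averaged over its phase set, the G1/S level was 0.65 ± 0.18 (SD, n = 3) in Foxp3- CD24int cells, 0.44 ± 0.36 in precursors and -0.67 ± 0.14 in lymph node naive cells. The G2/M level was 1.21 ± 0.70 in Foxp3- CD24int cells, 0.40 ± 1.17 in precursors and -1.08 ± 0.43 in lymph node naive cells. In these sorted bulk samples fewer dividing cells and less of each transcript per dividing cell cannot be told apart.

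**Figure D1:**
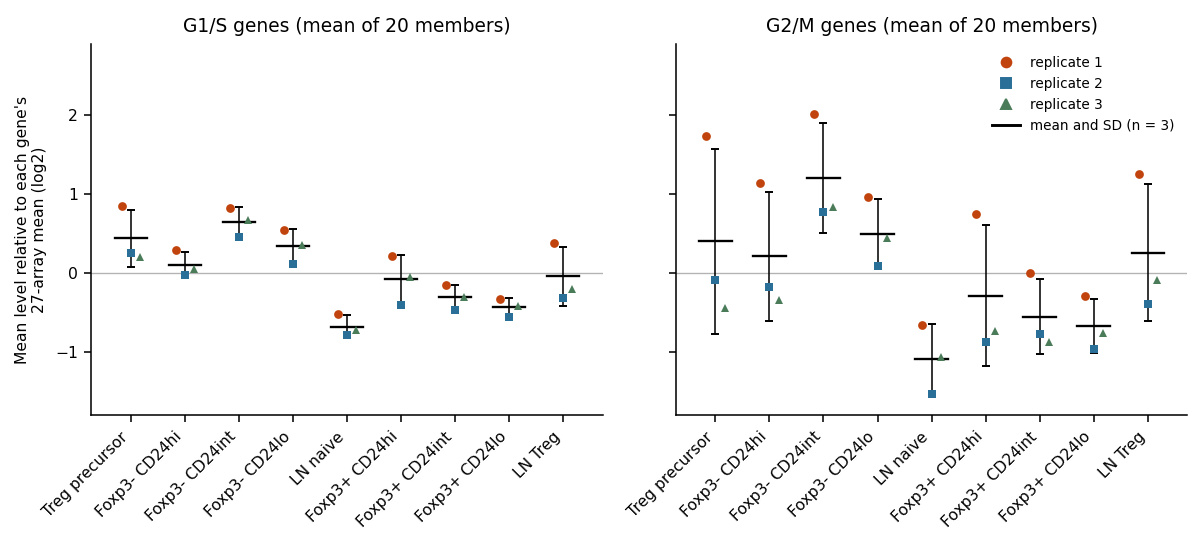
Mean level of the 20 G1/S genes (left) and 20 G2/M genes (right) on each of the 27 arrays, in log2 relative to each gene's own mean over all arrays. Points are arrays marked by replicate number, and bars are the group mean and SD (n = 3), with means that run from -0.67 to 0.65 for G1/S and from -1.08 to 1.21 for G2/M, with replicate 1 the highest point of every group for G2/M.

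The order of the groups was close to the same in both phases, with a Pearson correlation of 0.97 between the G1/S and G2/M means over the 9 groups, which share their arrays. Most single members followed it. Over the 9 group means, the correlation of a G2/M gene with the mean of the other G2/M genes was 0.80 or more for all but Kif23, at 0.43, and the highest was 0.995 for Cdk1, the kinase that drives entry into mitosis. In the G1/S set Cdc6 followed the others most closely at 0.99, and the lowest values were 0.58 for Cdt1, a licensing factor, and 0.68 for Tk1.

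**Figure D2:**
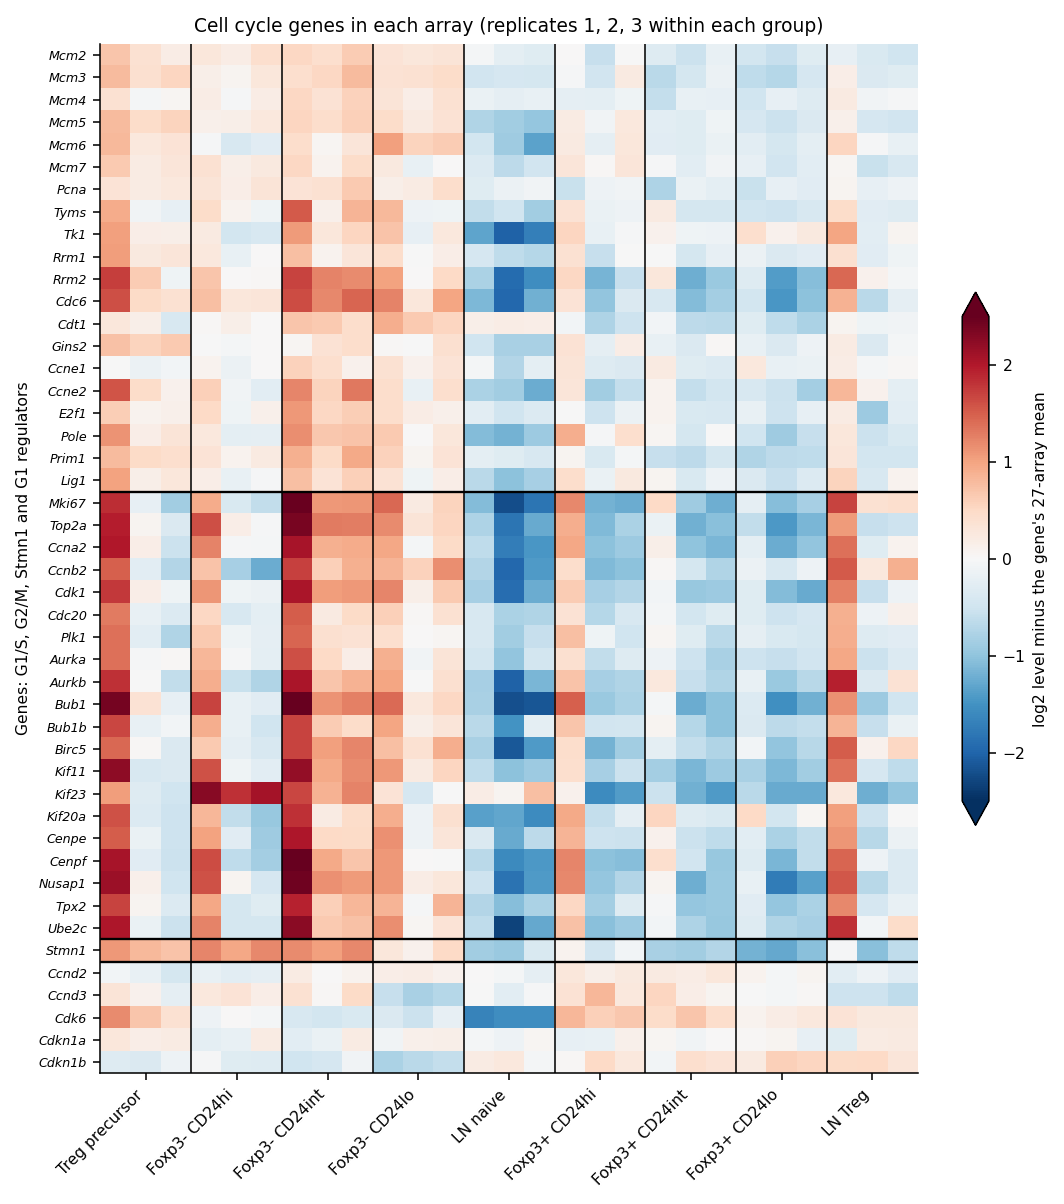
Level of the 46 members (lines, by role) on each of the 27 arrays (columns, replicates 1, 2 and 3 within each sorted group), as log2 minus the gene's mean over all arrays. Red is above and blue below that mean, with colours at their limits beyond the ends of the bar. Foxp3- CD24int cells hold the highest mean for 14 of 20 G1/S and 19 of 20 G2/M genes, and lymph node naive cells the lowest for 14 and 18, while the 5 G1 regulators follow patterns of their own.

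Replicates of a group differed in the G2/M genes more than in the rest. The within-group SD had a median of 0.69 over the G2/M genes, 0.23 over the G1/S genes and 0.16 over the G1 regulators. The difference ran with the replicate number, taken from the leading digit of the submitters' sample codes, whose meaning no label states. Replicate 1 lay above its group mean in 9 of 9 groups for the mean G2/M level, by 0.77 on average, and for the mean G1/S level, by 0.24. Replicate 2 lay below it in 9 of 9 groups in both sets.

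Bub1 was at 8.25, 6.38 and 6.29 in replicates 1, 2 and 3 of Foxp3- CD24hi cells and at 8.96, 6.92 and 6.35 in precursors. It was at 7.72, 5.66 and 6.07 in lymph node Tregs and at 5.75, 4.36 and 4.43 in lymph node naive cells. In each of these groups replicate 1 stood alone at the top and the other arrays lay close together. Between replicate 1 and the mean of replicates 2 and 3, in a limma model that also held the 9 group means, Bub1 was higher by 1.60 (SE 0.12, adjusted p = 2.15e-08).

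By the same limma test all 20 G2/M genes were higher in replicate 1 (median 1.14), as were 14 of 20 G1/S genes (median 0.33). Of all genes, 16% were higher and 13.3% lower, with a median of 0.01. After Bub1 the largest rises in the G2/M set were those of the kinetochore protein Cenpf (1.57), Nusap1 (1.56), Mki67 (1.46), the ubiquitin-conjugating enzyme Ube2c (1.37) and cyclin A2, Ccna2 (1.32). In the G1/S set they were those of Rrm2 (1.04), Cdc6 (0.74), Ccne2 (0.64), Tk1 (0.62), thymidylate synthase Tyms (0.61) and the polymerase subunit Pole (0.48). Tyms was dim, with a mean of 4.18 over the 27 arrays. None of the 5 G1 regulators passed, with 1 at an unadjusted p under 0.05, and Stmn1 was higher by 0.16 (adjusted p = 0.122). Cd24a, the gene of the sorted marker, was lower by 0.86 in replicate 1 (SE 0.11, limma adjusted p = 3.15e-06), and the part of any sorting difference in these values was not tested.

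**Figure D3:**
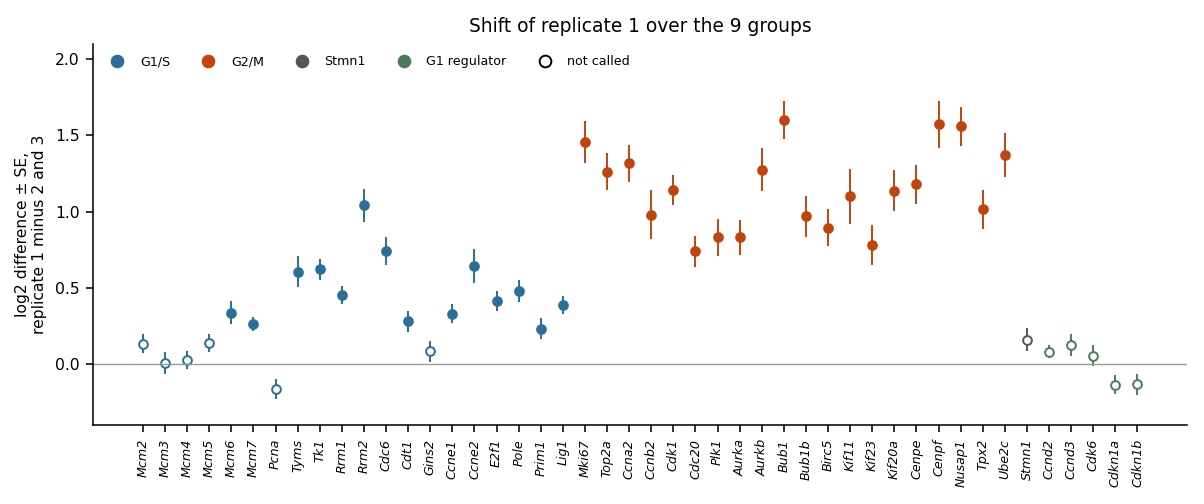
Difference between replicate 1 and the mean of replicates 2 and 3 over the 9 groups (log2, point and SE) for each of the 46 members, coloured by role and filled where the limma test passed. All 20 G2/M genes are filled and above 0, with Bub1 the highest at 1.60, 14 of 20 G1/S genes are filled, and Stmn1 and the 5 regulators are open.

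Because of this shift, differences within a replicate number were steadier than group means. Where same-numbered arrays deviated together in the groups compared, by the rule given with the processing, counts are also given from a fit that held the replicate number as a block. Array medians of the deposited intensities ran from 30.3 to 32.0, replicates correlated at 0.986 to 0.996, and the number of arrays limits the precision. Replicate 3 of the Foxp3- CD24hi group stood apart in liver transcripts, with albumin, Alb, at 11.65 while the 26 other arrays held it at 3.49 to 4.23. Comparisons between groups that use this array, fitted without the block, are also described without it. The blocked counts and the values given for the test of replicate number include it.

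The first comparison asked how Foxp3+ thymocytes differed from Foxp3- thymocytes of the same CD24 gate. At CD24int the division genes were lower in the Foxp3+ cells. Of the 46 members, 28 fell and 2 rose by limma with Benjamini-Hochberg adjustment over 18194 genes at 0.05, against 6.62% of all genes lower and 8.66% higher. The falls took in 15 of 20 G1/S genes, 12 of 20 G2/M genes and Stmn1, and the rises were Cdk6 and Cdkn1b. The median difference was -0.86 for G1/S and -1.79 for G2/M, against -0.01 for all genes, and every member of both phase sets was lower in all 3 same-numbered pairs.

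Cdc6 was at 7.96, 7.52 and 7.79 in Foxp3- CD24int cells and at 5.92, 5.24 and 5.47 in Foxp3+ CD24int cells. All Foxp3+ arrays lay below all Foxp3- arrays, and the difference of -2.21 (SE 0.38) was a 4.64-fold fall (limma adjusted p = 0.000116). Rrm2 was at 10.41, 9.95 and 9.89 against 9.01, 7.50 and 7.79, again with no overlap, and fell by 1.99. Ccne2 fell by 1.36, the primase subunit Prim1 by 1.33 with the smallest p of the set (limma adjusted p = 2.57e-06), and Cdt1 and Tyms by 1.06 each. Tyms was dim, with a mean of 4.18 over the 27 arrays against a median of 5.77 for all genes. Its other probe sets followed it at r = 0.79, 0.04 and -0.25 over the group means. The helicase subunit Mcm6 did not pass and differed by -0.52 (adjusted p = 0.0943).

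Among G2/M genes Top2a was at 11.26, 10.19 and 10.17 in Foxp3- CD24int cells and at 8.71, 7.69 and 7.85 in Foxp3+ CD24int cells. The groups did not overlap and the difference of -2.46 (SE 0.57) was a 5.49-fold fall (limma adjusted p = 0.00303). Bub1 was at 9.23, 7.68 and 7.83 against 6.51, 5.33 and 5.54, and its difference was -2.72, -2.35 and -2.29 within replicates 1, 2 and 3. Its group SDs were 0.85 and 0.63, larger than the spread of these 3 differences, and the mean difference of -2.45 had an adjusted p of 0.0156 by limma. The spindle motor Kif11 fell by 2.42, Kif23 by 2.31, Nusap1 by 2.24 and Mki67 by 2.09, while Cdc20 differed by -1.01 (adjusted p = 0.0643). In all, 40 of the 46 members did not overlap between the groups, against 25.6% of all genes.

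Without replicate 2 of the Foxp3+ CD24int group 18 members passed in either direction, while 954 of all 18194 genes fell and 1322 rose. Without replicate 1 of the Foxp3- CD24int group 19 passed, while 881 of all genes fell and 1496 rose. Of 5 markers of natural killer (NK) and NKT cells, 3 were lower in the Foxp3+ CD24int cells, with summed levels of 6.53 to 6.70 against 7.13 to 8.56. Of 8 markers of antigen-presenting cells 4 were lower as well (median -0.38), with sums of 8.56 to 8.95 against 9.03 to 9.62. Their part in the result was not tested.

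At CD24lo the phase medians had the same direction and were smaller. Of the members 15 fell and 3 rose, against 11.2% and 9.85% of all genes, with 11 of 20 G1/S genes, 3 of 20 G2/M genes and Stmn1 as the falls and Ccnd3, Cdk6 and Cdkn1b as the rises. Medians were -0.71 for G1/S and -1.12 for G2/M, against -0.01 for all genes, and 42 members did not overlap between the groups, against 33.5% of all genes. Cdc6 was at 7.56, 6.61 and 7.32 in Foxp3- CD24lo cells and at 5.87, 4.87 and 5.29 in Foxp3+ CD24lo cells. The arrays were separate, and the fall was 3.52-fold (difference -1.82, SE 0.38, limma adjusted p = 0.000709).

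Rrm2 fell by 1.43, Cdt1 by 1.27 with the smallest p in the set (adjusted p = 6.39e-06), Mcm6 by 1.05, Prim1 by 1.01 and the helicase subunit Mcm3 by 0.99, and Mcm7 differed by -0.34 (limma adjusted p = 0.151). In the G2/M set Top2a fell by 1.76 (adjusted p = 0.0271), Cdk1 by 1.55 and Birc5, the survivin subunit of the chromosomal passenger complex, by 1.26. Mki67 was at 10.21, 9.00 and 9.33 against 8.56, 7.71 and 7.95. These ranges did not overlap, yet the difference of -1.44 did not pass (adjusted p = 0.137). All 5 NK and NKT markers were lower in the Foxp3+ cells (median -3.72), with summed levels of 11.45 to 11.94 in the Foxp3- CD24lo arrays and 6.48 to 6.61 in the Foxp3+ arrays. Antigen-presenting cell markers were lower for 4 of 8 (median -0.42), with sums of 8.26 to 8.73 against 9.34 to 9.73. Cd24a itself was higher in the Foxp3+ cells of this gate by 1.62 (SE 0.42, limma adjusted p = 0.00569), at 7.16 to 7.89 against 5.08 to 6.62. The part of these markers and of Cd24a in the result was not tested. A fit on only the arrays compared gave 36 falls, among them 19 of 20 G2/M genes, and 3 rises at CD24lo. Over all 18194 genes it gave 2002 falls and 1778 rises. Without replicate 1 of every group 31 members fell, against 1955 of all genes. With the mean of all probe sets 17 members fell and 2 rose, against 2036 and 1750 of all genes. Not all of the 3 named rises thus held there.

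At CD24hi few division genes differed between Foxp3+ and Foxp3- cells. Of the members 4 fell and 3 rose, against 9.65% and 8.38% of all genes, shares close to the background, and the rises were Ccnd2, Cdk6 and Cdkn1b. The G1/S falls were the replication clamp Pcna (-0.52, adjusted p = 0.0137) and Mcm2 (-0.49, adjusted p = 0.018), and Mcm7 differed by -0.04. In the G2/M set Kif23 alone passed, at 9.95, 9.50 and 9.75 in Foxp3- cells and at 7.76, 6.10 and 6.27 in Foxp3+ cells. The fall was 8.10-fold, with no overlap (difference -3.02, SE 0.41, limma adjusted p = 5.47e-06).

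The phase medians at CD24hi were -0.19 for G1/S and -0.38 for G2/M, against 0.00 for all genes, and Top2a differed by -0.91 (limma adjusted p = 0.336). In all, 10 members did not overlap between the groups, against 30.4% of all genes. Without the Foxp3- array that held liver transcripts 4 members passed, while 1475 of all genes fell and 1228 rose. Kif23 still did, with a difference of -3.01, as did Stmn1 (-1.24), Cdk6 (0.76) and Ccnd2 (0.45). Pcna, Mcm2 and Cdkn1b did not (limma adjusted p = 0.0509, 0.0836 and 0.093). Under the replicate block 11 members fell and 4 rose, against 14.2% and 11.3% of all genes. With the mean of all probe sets 5 members fell and 1 rose, against 1795 and 1406 of 18194 genes. At most 1 of the 3 named rises thus held there. Of 8 markers of double-positive thymocytes 4 were lower in Foxp3+ CD24hi cells, with summed levels of 9.55 to 9.69 against 10.44 to 10.68, and their part was not tested.

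**Figure D4:**
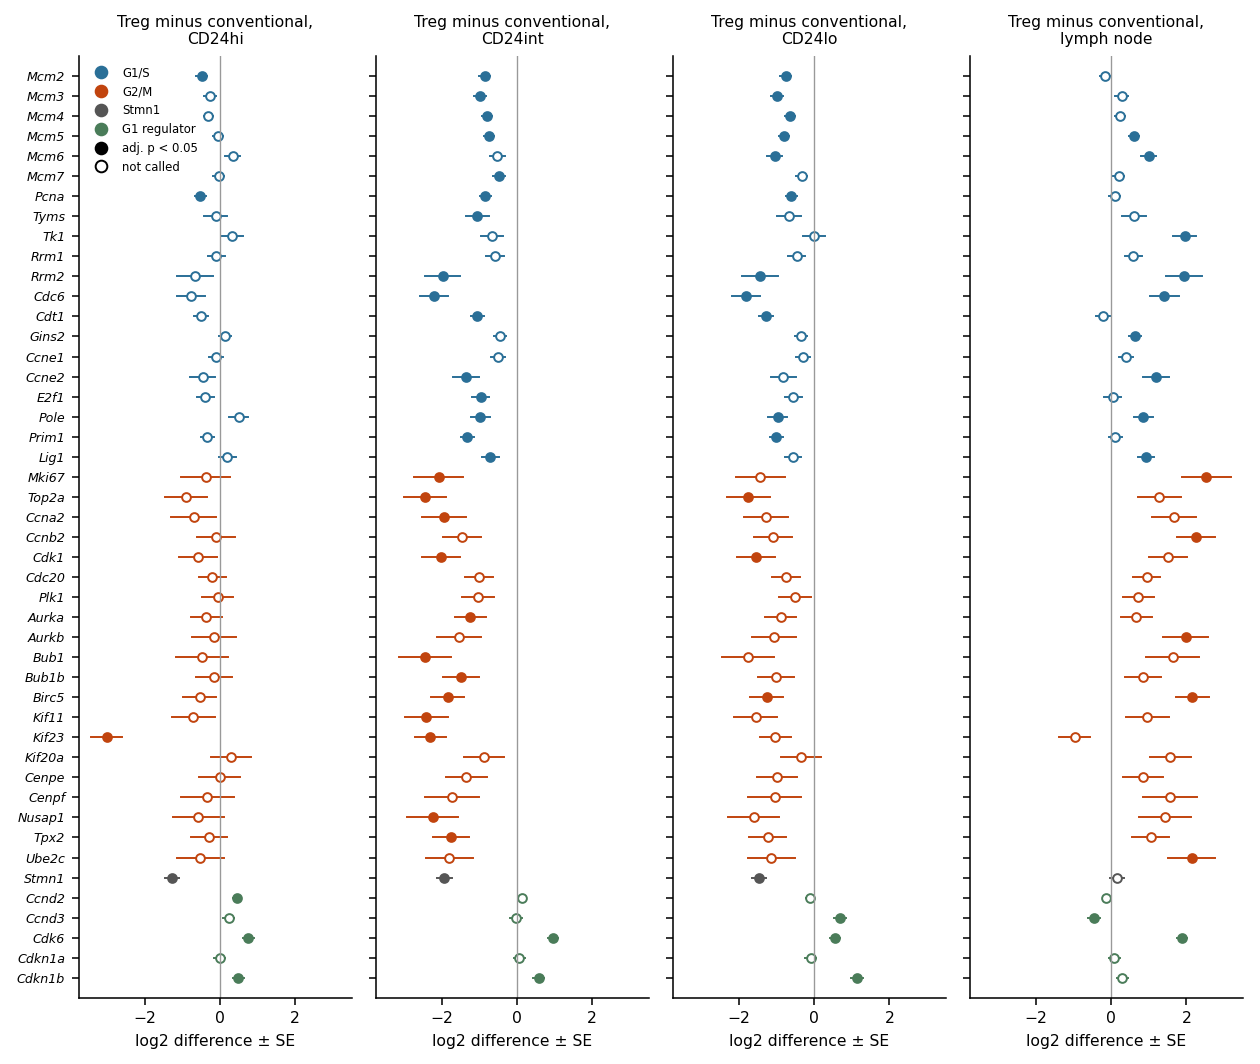
Difference of each of the 46 members (log2, point and SE) between Foxp3+ and Foxp3- thymocytes at CD24hi, CD24int and CD24lo and between lymph node Tregs and naive cells, filled where the adjusted p was under 0.05. Conventional in the panel titles means the Foxp3- or naive group. The thymic medians are -0.19, -0.86 and -0.71 for G1/S and -0.38, -1.79 and -1.12 for G2/M, and the lymph node medians are 0.60 and 1.47.

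In lymph node the direction was the opposite. Of the members 15 rose and 1 fell in Tregs against naive T cells, against 8.01% and 4.35% of all genes. The rises were 9 of 20 G1/S genes, 5 of 20 G2/M genes and Cdk6, and the fall was Ccnd3. Leaving out single arrays could end the Ccnd3 call. Mki67 was at 10.47, 9.16 and 9.20 in Tregs and at 7.70, 6.57 and 6.96 in naive cells. All Treg arrays lay above all naive arrays and the rise was 5.78-fold (difference 2.53, SE 0.65, limma adjusted p = 0.00842).

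Cyclin B2, Ccnb2, rose by 2.26, Birc5 by 2.16 (adjusted p = 0.000902), Ube2c by 2.15 and the passenger kinase Aurkb by 1.98, while Cdc20 differed by 0.94 (limma adjusted p = 0.105). In the G1/S set Tk1 was at 7.72, 6.48 and 6.82 in Tregs and at 5.41, 4.71 and 5.03 in naive cells. There was no overlap, and Tk1 rose 3.87-fold (difference 1.95, SE 0.30, limma adjusted p = 2.33e-05). Rrm2 rose by 1.93, Cdc6 by 1.41, Ccne2 by 1.19, Mcm6 by 1.00 and the ligase Lig1 by 0.92, while Pcna differed by 0.09.

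The medians were 0.60 for G1/S and 1.47 for G2/M, against -0.04 for all genes, and 32 members did not overlap, against 28.7% of all genes. With the replicate number as a block 30 members rose and 2 fell, against 10.9% and 7.22%, and the second fall was Kif23, at 7.93, 6.45 and 6.68 in Tregs and 7.85, 7.72 and 8.41 in naive cells. Without replicate 1 of the lymph node Tregs 7 members passed, while 1183 of all genes rose and 611 fell. NK and NKT markers were lower in Tregs for 3 of 5, with sums of 7.12 to 7.41 against 8.71 to 8.81. Sums of 5 B cell markers were 8.13 to 8.84 and 7.30 to 8.51, above the highest thymic array at 7.22. Double-positive markers were lower in Tregs for 1 of 8, with sums of 8.77 to 9.16 against 10.01 to 10.03. CD8 T cell markers were lower for 1 of 5 and lymph node T cell markers for 1 of 3. Their part in the result was not tested.

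Whether the Treg to conventional difference itself changed from thymus to lymph node was tested as an interaction, the lymph node difference minus the CD24lo difference. It was positive for 30 members and negative for 2, against 7.05% and 3.92% of all genes, and the positive genes were 15 of 20 G1/S and 13 of 20 G2/M genes with Stmn1 and Cdk6. Medians were 1.19 for G1/S and 2.78 for G2/M, against -0.03 for all genes. The interaction was 3.97 for Mki67 (SE 0.92, limma adjusted p = 0.00434), 3.42 for Birc5, 3.39 for Bub1, 3.36 for Ccnb2, 3.29 for Ube2c and 3.06 for Cdk1. In the G1/S set it was 3.36 for Rrm2 (SE 0.67, limma adjusted p = 0.00107), 3.23 for Cdc6, 2.05 for Mcm6, 2.01 for Ccne2, 1.95 for Tk1 and 1.82 for Pole, with the smallest p for the helicase subunit Mcm5 (1.41, adjusted p = 8.18e-06). Mcm2 at 0.60 and Plk1 at 1.23 did not pass. Without replicate 1 of the lymph node Tregs 21 members passed, while 1067 of all genes were positive and 607 negative. NK and NKT markers followed the same interaction for 4 of 5 (median 2.84) and antigen-presenting cell markers for 2 of 8 (median 0.34). Double-positive markers were negative for 2 of 8 (median -0.40) and lymph node T cell markers for 2 of 3 (median -1.23). CD8 T cell markers were positive for 1 of 5 and negative for 2. The part of all these markers was not tested.

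The conventional side of that interaction, meaning the Foxp3- or naive group, set lymph node naive cells against Foxp3- CD24lo thymocytes. Of the members 29 fell and 2 rose, against 8.58% and 6.03% of all genes. The falls took in 17 of 20 G1/S genes (median -0.84) and 10 of 20 G2/M genes (median -1.76), against a median of 0.03 for all genes. Cdc6 was at 5.20, 4.37 and 5.12 in naive cells and had been at 6.61 or above in the thymocytes. It fell 4.80-fold with no overlap (difference -2.26, SE 0.38, limma adjusted p = 9.32e-05).

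Tk1 fell by 1.95, Rrm2 by 1.93, Mcm6 by 1.63, Pole by 1.38 and Mcm5 by 1.22 (limma adjusted p = 2.6e-07), and Cdt1 differed by -0.53 (adjusted p = 0.0509). In the G2/M set Bub1 fell by 2.45, Mki67 by 2.43 (adjusted p = 0.0105), Ccnb2 by 2.24, Birc5 by 2.13, Cdk1 by 1.99 and Top2a by 1.97, and Cdc20 differed by -0.99. In all 44 members did not overlap, against 30.1% of all genes. Without replicate 1 of the Foxp3- CD24lo group 18 members passed, while 1304 of all genes fell and 865 rose. Likewise 18 passed without replicate 2 of the naive cells, while 1225 of all genes fell and 844 rose. NK and NKT markers were lower in naive cells for 4 of 5 and B cell markers higher for 2 of 5. Double-positive markers were higher for 2 of 8 (median -0.04), with sums of 10.01 to 10.03 against 8.65 to 9.17. CD8 T cell markers, which share Cd8a and Cd8b1 with that list, were higher for 2 of 5 and lower for 2. All 3 lymph node T cell markers were higher. The part of these markers in the result was not tested.

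On the Treg side, lymph node Tregs against Foxp3+ CD24lo thymocytes, 0 members rose and 1 fell by limma, against 3.15% and 2.78% of all genes, with 17 at an unadjusted p under 0.05. The member that fell was the D-type cyclin Ccnd3. Averaging all its probe sets ended the call (-0.29, limma adjusted p = 0.278), as did leaving out any 1 of the 6 arrays (adjusted p from 0.072 to 0.127). The medians were nonetheless 0.40 for G1/S and 1.03 for G2/M, against 0.01 for all genes, and 19 of 20 G2/M genes were higher in all 3 same-numbered pairs. Mki67 was at 8.56, 7.71 and 7.95 in the thymocytes and at 10.47, 9.16 and 9.20 in lymph node Tregs, a difference of 1.53 (adjusted p = 0.228). In all 18 members did not overlap, against 20.8% of all genes. In the fit with the block 22 members rose and 1 fell, against 5.7% and 4.86%, and the rises were 8 G1/S genes, 13 G2/M genes and Stmn1. B cell markers were higher in lymph node Tregs for 2 of 5 and antigen-presenting cell markers for 3 of 8 (median 0.38, sums of 9.45 to 10.02 against 8.26 to 8.73), and their part was not tested.

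The next comparisons set the CD24 gates of 1 Foxp3 class against each other, and whether the gates are stages of 1 population was not tested. From CD24hi to CD24int in Foxp3- cells only Pole passed, higher by 0.92 (SE 0.26, limma adjusted p = 0.0332), so 1 member rose and 0 fell, against 2.26% and 2.75% of all genes, with 24 members at an unadjusted p under 0.05. The direction was shared beyond that call. In each phase set 19 of 20 genes were higher in all 3 same-numbered pairs, with medians of 0.52 for G1/S and 1.07 for G2/M, against 0.00 for all genes.

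Mki67 was at 9.71, 8.40 and 8.17 in Foxp3- CD24hi cells and at 11.25, 9.86 and 9.89 in Foxp3- CD24int cells. All CD24int arrays lay above all CD24hi arrays, although replicate 1 of the lower group came close to replicates 2 and 3 of the higher. In the blocked fit 27 members rose and 0 fell, against 4.48% and 5.53% of all genes, among them 11 G1/S genes, 15 G2/M genes and cyclin D2, Ccnd2. Top2a differed by 1.07 (adjusted p = 0.385) and Pcna by 0.19 in the fit without the block. Without the Foxp3- CD24hi array that held liver transcripts 0 members passed, while 263 of all genes rose and 363 fell. Pole then differed by 0.84 (limma adjusted p = 0.129). In all 20 members did not overlap between the groups, against 19.1% of all genes. NK and NKT markers were higher at CD24int for 3 of 5 and double-positive markers lower for 3 of 8, and their part was not tested.

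From CD24int to CD24lo in Foxp3- cells 3 members fell and 0 rose, against 4.13% and 7.86% of all genes. They were Ccnd3 (-0.99, SE 0.15, limma adjusted p = 3.54e-05), Stmn1 (-0.84, adjusted p = 0.003) and Kif23 (-1.29, adjusted p = 0.0422). Medians were -0.27 for G1/S and -0.71 for G2/M, against 0.01 for all genes, 17 of 20 genes in each set were lower in all 3 same-numbered pairs, and 12 members did not overlap, against 24.4% of all genes. Under the replicate block 19 fell and 1 rose, against 7.15% and 11.6%. All 5 NK and NKT markers were higher at CD24lo (median 3.58), with sums of 11.45 to 11.94 against 7.13 to 8.56. All 3 markers of lymph node T cells were lower (median -1.18). The part of these markers in the result was not tested.

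In Foxp3+ cells 0 members passed at either step by limma. From CD24hi to CD24int 0.242% of all genes rose and 0.044% fell, 5 members were at an unadjusted p under 0.05, and 5 did not overlap, against 11.7% of all genes. From CD24int to CD24lo 0.011% rose and 0.0055% fell, 1 member was at an unadjusted p under 0.05, and 6 did not overlap, against 8.67%. The medians were -0.23 and -0.12 for G1/S and -0.29 and -0.10 for G2/M, against 0.00 and 0.01 for all genes. With the block 2 members fell and 0 rose at the first step, against 0.242% and 0.912% of all genes, and 0 passed at the second, against 0.033% lower and 0.0934% higher.

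The difference between Foxp3+ and Foxp3- cells in the first step was tested as an interaction. It was negative for 2 members and positive for 0, against 0.533% and 1.01% of all genes. These were Pole (-1.48, SE 0.36, limma adjusted p = 0.0343) and Prim1 (-0.99, SE 0.24, limma adjusted p = 0.0352), both parts of the replication machinery. Phase medians were -0.71 and -1.34, against 0.01 for all genes, and Mki67 differed by -1.70 (SE 0.92, adjusted p = 0.473). Without the array that held liver transcripts neither passed, with Pole at -1.40 (limma adjusted p = 0.0836) and Prim1 at -0.99 (limma adjusted p = 0.0695). Of all genes 140 were positive and 58 negative in that fit. In the second step 0 members passed by limma, against 1.41% of all genes positive and 3.57% negative, with 4 at an unadjusted p under 0.05.

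Few division genes passed between Treg precursors and Foxp3- CD24hi cells. Of the members 3 rose and 1 fell in precursors, against 5.08% and 4.03% of all genes, and 7 did not overlap, against 22.1%. The rises were Mcm6 (0.71, limma adjusted p = 0.0261), the helicase cofactor subunit Gins2 (0.66, limma adjusted p = 0.00606) and Cdk6, and the fall was Kif23 (-1.99, SE 0.41, limma adjusted p = 0.00181). Medians were 0.39 for G1/S and 0.32 for G2/M, against -0.01 for all genes. In all 3 same-numbered pairs 12 of 20 G1/S genes and 9 of 20 G2/M genes were higher in precursors, and 0 and 1 were lower. The blocked fit gave 8 rises, 7 of them G1/S genes, and 1 fall, against 7.83% and 6.85% of all genes. Without the array that held liver transcripts 3 members passed and Mcm6 did not (limma adjusted p = 0.0754). Of all genes 775 rose and 686 fell in that fit.

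Foxp3+ CD24hi cells against precursors showed falls in replication genes. Of the members 9 fell and 2 rose, against 9.27% and 6.77% of all genes, and the falls were 8 G1/S genes and Stmn1. Cdc6 was at 7.93, 6.80 and 6.70 in precursors and at 6.67, 5.34 and 5.97 in Foxp3+ CD24hi cells. The ranges lay next to each other without overlap, and Cdc6 fell by 1.15 (SE 0.38, limma adjusted p = 0.0382).

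Ccne2 fell by 1.09, Prim1 by 0.69, Mcm3 by 0.66, Mcm2 by 0.61 (limma adjusted p = 0.00376) and Gins2 by 0.54. No G2/M gene passed, 1 was at an unadjusted p under 0.05, and Top2a differed by -0.88 (limma adjusted p = 0.361). Medians were -0.49 for G1/S and -0.71 for G2/M, against 0.02 for all genes, and 13 members did not overlap, against 26.9%. With the replicate number as a block 21 fell and 3 rose, against 14.3% and 10.2%. Without replicate 1 of the precursors 7 members passed, while 1530 of all genes fell and 1130 rose. Without replicate 2 of the Foxp3+ CD24hi cells 3 passed, while 1075 of all genes fell and 979 rose. Double-positive markers were higher in precursors than in Foxp3- CD24hi cells for 5 of 8 and lower in Foxp3+ CD24hi cells than in precursors for 6 of 8, with sums of 10.59 to 11.70 in precursors. NK and NKT markers were higher in precursors than in Foxp3- CD24hi cells for 3 of 5 (median 1.79) and lower in Foxp3+ CD24hi cells than in precursors for 3 of 5 (median -1.15). Their sums were 7.32 to 8.71 in precursors, 6.30 to 6.72 in Foxp3- CD24hi and 6.48 to 6.83 in Foxp3+ CD24hi cells. Antigen-presenting cell markers were lower in Foxp3+ CD24hi cells than in precursors for 2 of 8, and Cd24a was lower by 1.40. Their part in the result was not tested.

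The G1 regulators followed other orders than the phase sets and shifted little with the replicate number. Cdk6, the kinase partner of the D-type cyclins, was at 10.14, 9.66 and 9.34 in precursors and at 9.79, 9.56 and 9.64 in Foxp3+ CD24hi cells. It was at 9.43, 9.65 and 9.40 in Foxp3+ CD24int cells, at 9.31, 9.21 and 9.22 in lymph node Tregs and at 9.06, 9.15 and 9.22 in Foxp3+ CD24lo cells. The precursor and Treg groups thus lay above every Foxp3- CD24 group, which ran from 8.43 to 8.97 over 9 arrays, while lymph node naive cells were lowest at 7.29, 7.41 and 7.42.

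Cdk6 was higher in lymph node Tregs than in naive cells by 1.88 (SE 0.14, limma adjusted p = 1.21e-10), a 3.67-fold difference. It was higher in Foxp3+ than in Foxp3- cells at each CD24 level, by 0.76 at CD24hi, 0.95 at CD24int and 0.55 at CD24lo (limma adjusted p = 0.000192, 1.13e-05 and 0.0038). It was higher in precursors than in Foxp3- CD24hi cells by 0.80 (limma adjusted p = 0.000175) and lower in naive cells than in Foxp3- CD24lo cells by 1.23. Between Foxp3+ CD24hi cells and precursors the difference was -0.05 (SE 0.14). The other Cdk6 probe sets followed the one used at r = 0.999 and 0.88 over the group means. With the mean of all probe sets at most 1 of the 3 rises at CD24hi held, those of Ccnd2, Cdk6 and Cdkn1b.

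Cdkn1b, the p27 inhibitor, was at 10.24, 10.61 and 10.54 in Foxp3+ CD24lo cells, at 10.50, 10.52 and 10.32 in lymph node Tregs and at 10.22, 10.27 and 9.96 in naive cells. It was at 10.04, 10.50 and 10.28 in Foxp3+ CD24hi and at 9.94, 10.44 and 10.36 in Foxp3+ CD24int cells. It was lower in Foxp3- cells, at 9.98, 9.71 and 9.70 in CD24hi, 9.51, 9.59 and 9.93 in CD24int and 9.22, 9.35 and 9.41 in CD24lo cells, and was at 9.69, 9.66 and 9.90 in precursors. At each CD24 level the Foxp3+ arrays lay above the Foxp3- arrays.

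Cdkn1b rose in Foxp3+ against Foxp3- cells by 0.48, 0.57 and 1.14 at CD24hi, CD24int and CD24lo (SE 0.15, limma adjusted p = 0.0241, 0.00816 and 1.64e-06). Without the Foxp3- CD24hi array that held liver transcripts the first of these was 0.43 and did not pass. Between lymph node Tregs and naive cells it differed by 0.30 (limma adjusted p = 0.251), and from Foxp3- CD24lo to naive cells it rose by 0.82 (limma adjusted p = 0.000218). The interaction between tissue and class was -0.84 (SE 0.21, limma adjusted p = 0.00775). It rose by 0.52 from precursors to Foxp3+ CD24hi cells (limma adjusted p = 0.0151).

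Ccnd3, cyclin D3, was lowest in Foxp3- CD24lo cells at 9.42, 9.19 and 9.29 and in lymph node Tregs at 9.49, 9.48 and 9.37. It was at 10.36, 10.82 and 10.27 in Foxp3+ CD24hi, 10.54, 10.18 and 10.06 in Foxp3+ CD24int and 9.98, 9.95 and 10.03 in Foxp3+ CD24lo cells. In Foxp3- cells it was at 10.27, 10.34 and 10.17 at CD24hi and 10.38, 10.03 and 10.48 at CD24int, and it was at 10.32, 10.11 and 9.77 in precursors and 10.00, 9.74 and 9.97 in naive cells. The groups other than the lowest pair mostly overlapped.

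At CD24lo Ccnd3 was higher in Foxp3+ than in Foxp3- cells by 0.68 (SE 0.15, limma adjusted p = 0.00145). In lymph node it was lower in Tregs than in naive cells by 0.46 (limma adjusted p = 0.0497). This call was lost without replicate 1 or 3 of the naive cells or replicate 2 or 3 of the Tregs. Lymph node Tregs were below Foxp3+ CD24lo cells by 0.54 (limma adjusted p = 0.0336), a call lost without any single array compared and when probe sets were averaged. The other Ccnd3 probe sets followed the one used at r = 0.60 and 0.85 over the group means. Naive cells were above Foxp3- CD24lo cells by 0.60 (limma adjusted p = 0.00684), and the interaction was -1.14 (SE 0.22, limma adjusted p = 0.000564).

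Ccnd2, cyclin D2, kept within 0.46 over the group means, from 12.15 in precursors to 12.61 in Foxp3+ CD24hi and CD24int cells. Its arrays were at 12.20, 12.13 and 12.16 in Foxp3- CD24hi cells against 12.67, 12.54 and 12.62 in Foxp3+ CD24hi cells. These did not overlap, and Ccnd2 was higher in the Foxp3+ cells by 0.45 (SE 0.10, limma adjusted p = 0.00142) and higher than in precursors by 0.46. Its other probe sets followed the one used at r = 0.85 to 0.93 over the group means. With the mean of all probe sets 1 member rose at CD24hi, so Ccnd2, Cdk6 and Cdkn1b did not all hold there. Cdkn1a, the p21 inhibitor, was at 5.10 to 5.68 on all 27 arrays, near the median level of 5.77 over all genes, its group means ranged over 0.30, and it passed in none of the 15 comparisons between groups.

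**Figure D5:**
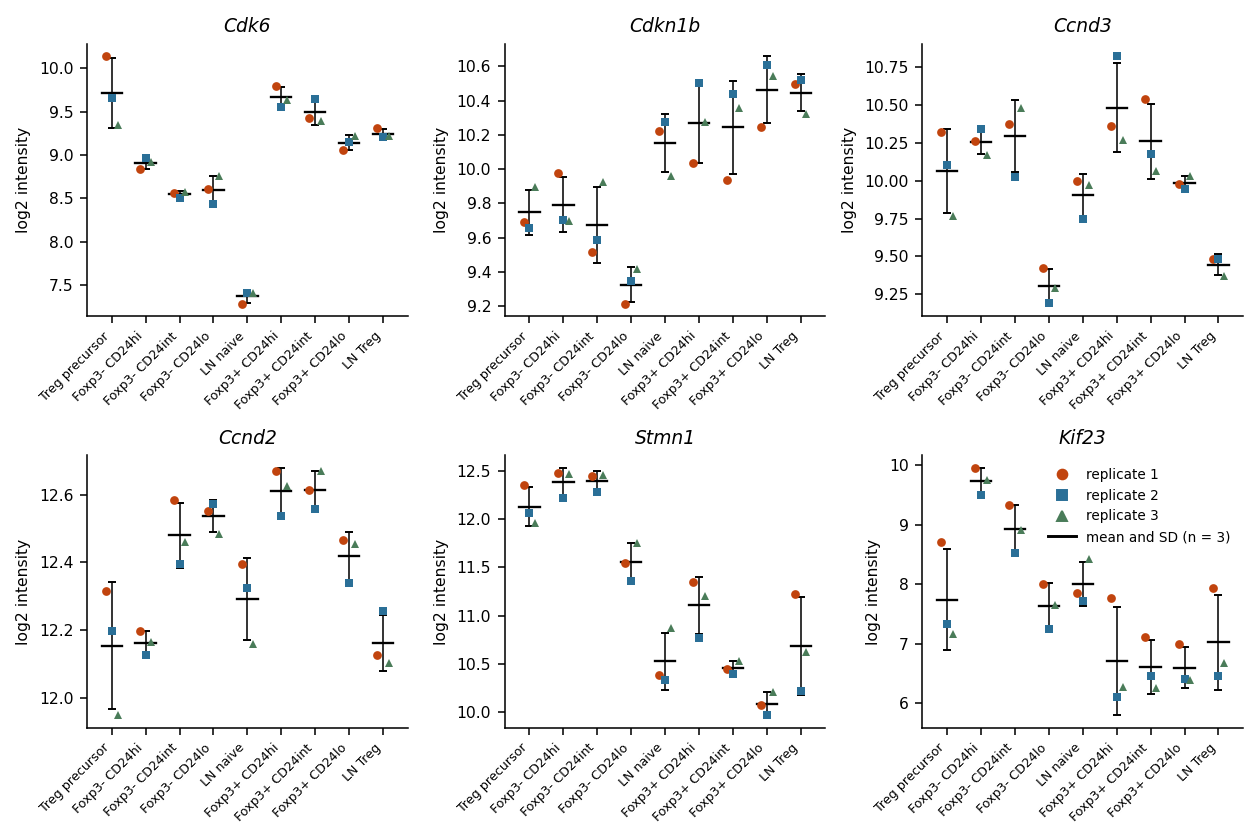
Level (log2 intensity) of Cdk6, Cdkn1b, Ccnd3, Ccnd2, Stmn1 and Kif23 on each array, by sorted group, with the group mean and SD. Cdk6 is lowest in lymph node naive cells at 7.37 and highest in precursors at 9.71, Cdkn1b is lowest in Foxp3- CD24lo cells at 9.33, and Stmn1 runs from 10.09 in Foxp3+ CD24lo cells to 12.39 in Foxp3- CD24hi and CD24int cells.

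Stmn1 split the groups with less spread between replicates than the G2/M genes. It was at 12.48, 12.22 and 12.46 in Foxp3- CD24hi, 12.45, 12.28 and 12.46 in Foxp3- CD24int and 11.54, 11.36 and 11.76 in Foxp3- CD24lo cells. In Foxp3+ cells it was at 11.35, 10.77 and 11.20 at CD24hi, 10.45, 10.40 and 10.53 at CD24int and 10.08, 9.98 and 10.21 at CD24lo. It was at 12.35, 12.07 and 11.96 in precursors, at 11.22, 10.22 and 10.62 in lymph node Tregs and at 10.38, 10.34 and 10.87 in naive cells. Foxp3+ arrays lay below Foxp3- arrays at every CD24 level, and the lymph node groups overlapped.

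Stmn1 fell in Foxp3+ against Foxp3- cells by 1.28, 1.93 and 1.47 at CD24hi, CD24int and CD24lo (SE 0.19, limma adjusted p = 1.65e-05, 3.19e-08 and 1.54e-06). It fell by 1.02 from precursors to Foxp3+ CD24hi cells (limma adjusted p = 0.000397) and by 1.02 from Foxp3- CD24lo to naive cells (limma adjusted p = 0.000317). In lymph node Tregs against naive cells it differed by 0.16 (limma adjusted p = 0.726), and its tissue interaction was 1.62 (SE 0.27, limma adjusted p = 0.000121).

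Kif23 departed most from the G2/M pattern. It was highest in Foxp3- CD24hi cells, with a mean of 9.73, followed by Foxp3- CD24int cells at 8.92 and lymph node naive cells at 8.00, whereas the other G2/M genes were mostly lowest in naive cells. It was at 8.71, 7.34 and 7.17 in precursors, at 7.12, 6.46 and 6.25 in Foxp3+ CD24int cells and at 6.99, 6.40 and 6.40 in Foxp3+ CD24lo cells. A second probe set of Kif23 followed the first over the 9 group means (r = 0.998). Replicate 1 was the highest array in every group but naive cells.

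Tk1 did not pass between Foxp3+ and Foxp3- thymocytes at any CD24 gate, with differences of 0.32, -0.67 and 0.00 from CD24hi to CD24lo (limma adjusted p = 0.571, 0.151 and 0.999). It was at 6.85, 6.63 and 6.61 in Foxp3+ CD24int cells and at 7.16, 6.85 and 6.98 in Foxp3+ CD24lo cells, against 7.80, 7.02 and 7.29 and 7.45, 6.54 and 7.00 in the Foxp3- cells of the same gates. At CD24int the Foxp3+ arrays lay below the Foxp3- arrays. There all 20 G1/S genes, Tk1 among them, had an unadjusted limma p under 0.05. With the replicate block all 20 fell, against 9.59% of all genes, although the pairing rule was not met there. The CD24lo groups overlapped fully, with both means at 7.00. Ccne1 was at 7.69, 7.54 and 7.23 in Foxp3- CD24int and at 7.07, 6.37 and 6.88 in naive cells, and Mcm4 was at 10.50, 10.34 and 10.56 and at 9.82, 9.75 and 9.80. Both kept the direction of the set at a smaller size.

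Plk1 was at 8.22, 7.16 and 7.14 in Foxp3- CD24int cells and at 6.36, 5.89 and 6.19 in naive cells. Cdc20 was at 10.06, 8.77 and 9.01 in Foxp3- CD24int cells and at 8.14, 7.74 and 7.79 in naive cells. These were the groups with the highest and lowest mean of both genes, so the separation of their arrays is not a separate result. In each group the array labelled replicate 1 was the highest.

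Further cell cycle genes, in lists kept apart from the members, were counted in the same fits. At CD24int 6.62% of all genes fell and 8.66% rose in Foxp3+ cells. There 33 of 42 other G1/S genes and 28 of 50 other G2/M genes fell and 0 rose, with medians of -0.82 and -1.19. Those with the smallest p were the polymerase subunit Pole2 (-1.76), the histone chaperone subunit Chaf1b (-1.19) and Slbp (-0.77), which binds histone mRNA, and in G2/M Cks1b (-1.39), the condensin subunit Smc2 (-1.26) and the checkpoint protein Mad2l1 (-0.97). At CD24lo 28 and 10 fell, against 11.2% of all genes, and 1 in each list rose, against 9.85%. The G2/M rise was the condensin subunit Smc4 (1.82). In lymph node Tregs against naive cells 11 of 42 other G1/S genes rose and 2 fell. Of 50 other G2/M genes 12 rose and 0 fell, while 8.01% of all genes rose and 4.35% fell.

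Against 8.66% and 6.62% of all genes, 6 of 26 other G1 and quiescence regulators rose and 4 fell at CD24int in Foxp3+ cells. Those with the smallest p were Cdk2 (-0.75), the G1/S kinase, Ccng2 (0.66), a cyclin linked to cell cycle arrest, and Rb1 (0.79), the retinoblastoma protein. At CD24lo 7 rose and 7 fell, against 9.85% and 11.2% of all genes. Cdkn2a, which encodes p16 and p19ARF, was at -3.02, Ccng2 at 1.49 and Foxo1, a factor of quiescent T cells, at 1.12. In replicate 1 against the others 44 of 50 other G2/M genes and 23 of 42 other G1/S genes were higher, 0 and 1 lower. Of the other G1 and quiescence regulators 5 were higher and 7 lower, while 16% of all genes were higher and 13.3% lower.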

How the data were processed

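RNA of 27 samples was measured on Affymetrix 3' arrays. The deposited values are intensities made by the authors with RMA, per the submitters' processing notes, and were log2-transformed here. RMA settings are not given in the sources used here. Of 45101 probe sets 34958 carried 1 symbol, 932 several and 9211 none. The brightest single-symbol probe set was kept for each of 18194 genes, with no filter on level, and 33 members had several probe sets. Groups came from the labels.

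limma 3.58.1 (R 4.3.3) fitted 9 group means on 27 arrays with empirical Bayes moderation (prior df 5.98). Tests were two-sided, with Benjamini-Hochberg adjustment over all genes within each of 16 comparisons, and a gene passed under 0.05. The group and replicate tests were run on simulated data with independent normal noise for each gene. The simulated group test held no shift shared by replicate number, and the fit with the block was not simulated.

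Replicate numbers were taken to pair samples where deviations of every same-numbered pair correlated above 0.1. This held in 9 of 15 comparisons and rests on the values only, as the meaning of the number is not given in the labels. Marker sums are log2 of summed intensities. Per-array values are given for the regulators, Stmn1 and, in each phase, the 4 members with the largest and the 2 with the smallest range of group means. In each comparison up to 6 passing members a phase with the largest difference were named, with the one of smallest p and the brightest that did not pass, and up to 3 of other lists. Tk1 and Kif23 were singled out after their values were seen. The members, lists and tests were chosen with earlier results of these data known. Alternatives were quantile normalization, the mean of all probe sets, only the arrays compared, no genes below the median level, the replicate block and leaving out replicates.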

Additional observations from a re-analysis of the deposited data

Results flagged for a closer look

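Differences between cell classes were themselves different in 2 of the tests. In the first CD24 step, Foxp3+ minus Foxp3-, 2 members passed the interaction test, Pole (-1.48) and Prim1 (-0.99). Without the Foxp3- CD24hi array that held liver transcripts neither passed by limma (adjusted p = 0.0836 and 0.0695). Likewise 0 members passed without replicate 1 or 3 of Foxp3+ CD24hi, replicate 2 of Foxp3+ CD24int, replicate 1 of Foxp3- CD24int or replicate 2 of Foxp3- CD24hi. In these fits 131 to 222 of all genes were positive and 48 to 91 negative, against 184 and 97 in the main fit.

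In the lymph node minus thymus test of Treg minus conventional cells 32 members passed. Among G1/S genes the interaction was 3.36 for Rrm2, 3.23 for Cdc6, 2.05 for Mcm6, 2.01 for Ccne2, 1.95 for Tk1, 1.82 for Pole and 1.41 for Mcm5. Among G2/M genes it was 3.97 for Mki67, 3.42 for Birc5, 3.39 for Bub1, 3.36 for Ccnb2, 3.29 for Ube2c and 3.06 for Cdk1. For Stmn1 it was 1.62 and for Cdk6 1.33, while for Ccnd3 it was -1.14 and for Cdkn1b -0.84.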

How the results depend on the processing

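Counts of members that passed depended mainly on how the replicate number was treated, and no member changed direction in a called difference under any alternative run. With the replicate block the count was 15 at CD24hi, 39 at CD24lo, 32 in lymph node Tregs against naive cells, 27 and 20 for the Foxp3- steps, 2 for the first Foxp3+ step, 9 for precursors, 24 for Foxp3+ CD24hi against precursors, 23 for lymph node Tregs against Foxp3+ CD24lo, 21 for the first-step and 3 for the second-step interaction. It was 43 at CD24int, 44 for naive against Foxp3- CD24lo cells, 43 for the tissue interaction and 0 for the second Foxp3+ step, within 1.5 times the count without the block. Counts over all genes grew as well. With the block 12% of all genes rose and 9.59% fell at CD24int, and 12.7% and 14.9% at CD24lo. These shares were 8.94% and 12.4% for naive against Foxp3- CD24lo cells. In the tissue interaction 10.3% were positive and 6.59% negative. For the first-step interaction these were 3.45% and 2.27%, and for the second 2.83% and 5.6%. At CD24int, at CD24lo, for naive against Foxp3- CD24lo cells and in the interactions the pairing rule over all genes was not met, with lowest pair correlations of -0.05, 0.0988 and 0.089 in the first 3, although the mean G2/M level was above its group mean in replicate 1 of all 9 groups.

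Quantile normalization gave 4 and 5 for the Foxp3- steps and 4 for the first-step interaction. The mean of all probe sets gave 4 for the first Foxp3- step. It also gave 1 rise at CD24hi and 2 at CD24lo, where the main fit gave 3 in each. Fits on only the arrays compared gave 39 at CD24lo, 4 and 5 for the Foxp3- steps, 2 for Foxp3+ CD24hi against precursors and 5 for lymph node Tregs against Foxp3+ CD24lo. Without genes below the median level the counts were 3 for the first Foxp3- step, 2 for lymph node Tregs against Foxp3+ CD24lo and 1 for the second-step interaction. Counts over all genes also moved. In the first Foxp3- step 411 genes rose and 500 fell in the main fit. Quantile normalization gave 486 and 483 there, and the fit on only the arrays compared gave 263 and 289. The cause of these shifts was not tested.

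Leaving out arrays gave 3 to 15 at CD24hi, 13 to 39 at CD24int, 12 to 34 at CD24lo, 6 to 23 in lymph node, 0 to 21 and 2 to 11 for the Foxp3- steps, 0 for both Foxp3+ steps, 1 to 5 for precursors and 2 to 21 for Foxp3+ CD24hi against precursors. It gave 10 to 41 for naive against Foxp3- CD24lo cells, 0 to 9 for lymph node Tregs against Foxp3+ CD24lo, 0 to 7, 0 to 1 and 13 to 38 for the interactions, and 34 to 37 for the replicate number. In the comparisons between groups where the count moved, the highest count came without replicate 1 of every group. Counts over all genes moved too. At CD24int 1604 of 18194 genes rose and 965 fell without replicate 1, and 810 rose and 561 fell without replicate 2. Depth is unknown for arrays, and 2 G1/S and 3 G2/M genes lay below the median level of all genes.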
